A study of Rattus norvegicus with 4 samples.

Results

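The bins described here are the 4959 stretches of 100 kb that lay in the bottom 20% of the compartment eigenvector in control rat Schwann cells (SCs), out of 24829 bins used on the 20 numbered chromosomes. They were chosen from the Lenti-GFP contact map, apart from the sign of the eigenvector and the filter for used bins, which drew on all 4 libraries. For each chromosome, observed over expected cis contacts were correlated between bins and the leading eigenvector was taken. Its sign was set so that it rose with the raw contacts per bin, summed over the 4 libraries of both groups, and the lowest 20% of bins were kept. The Hi-C series held 4 libraries of primary rat SCs from sciatic nerve, 2 infected with a control lentivirus carrying GFP (Lenti-GFP) and 2 infected with a lentivirus that overexpresses the antisense RNA of the Egr2 promoter (Lenti-AS). The paper names a DsRed vector for the antisense RNA and a different plasmid, with GFP, for the control. The groups thus differed in plasmid as well, which cannot be told apart from the antisense RNA. Both viruses were given at 2 units per cell for 48 hours, so every library came from infected cells, grown with forskolin and heregulin, and no uninfected library was used. The strain, age and sex of the animals are not given in the sources used here. The comparison asked whether the contacts of these bins differed when the antisense RNA was overexpressed.

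Hi-C joins pieces of DNA that lie close to each other in the nucleus, and counts how often each pair of loci was joined. In most mammalian nuclei the maps split into a pair of compartments. Loci of the A compartment are open, rich in genes and active, loci of the B compartment are compact, poor in genes and often held at the nuclear lamina or around the nucleolus, and each kind meets its own kind more than the other, within a chromosome (cis) and between chromosomes (trans). The bottom-fifth bins are B-like only in this sense. Their name rests on the eigenvector and on its sign, and no expression, accessibility, lamina or histone data were used for it. A marker check of the labelled cell type was not made, since a contact map holds no expression. Hi-C also averages over cells, so fewer cells with a contact and fewer contacts per cell cannot be told apart.

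The sign of the eigenvector was checked on each chromosome. On the Lenti-GFP map the eigenvector correlated with raw contacts per bin at r = 0.17 on chromosome 17 and r = 0.49 on chromosome 2, the lowest and highest values over the 20 chromosomes. Had trans contacts set the sign, chromosomes 10, 17 and 20 would have turned round, with r against trans contacts of -0.034, -0.11 and -0.12 under the sign used. Trans contacts with the other chromosomes bear on this directly. In every library, the chosen bins of chromosomes 10, 17 and 20 met the chosen bins of the other chromosomes at no less than 2.01, 1.69 and 1.9 times the expected level, and met top-fifth bins at no more than 0.324, 0.415 and 0.311 times the expected level. The first eigenvector carried from 8.55% (chromosome 1) to 26.6% (chromosome 12) of the variance of its correlation matrix, and the second from 3.43% to 11.4% on the same chromosomes.

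The eigenvector was scaled to a mean square of 1 on each chromosome, and these values are given as a description because they chose the bins. The highest chosen bin lay between -1.37 (chromosome 17) and -1.12 (chromosome 4). On these chromosomes the lowest bin left out was at -1.37 and -1.12 too, so no gap parted members from non-members. The lowest member of all, at -2.31, was on chromosome 1. Members were poor in contacts, with a median of 19520 raw contacts per bin over the 4 libraries, 0.863 of the median of all used bins, against 1.10 for the top 20%. Since the sign was set by raw contacts, this too followed in part from the rule.

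Along the chromosomes, the chosen bins were less frequent near the ends than used bins as a whole. Only 11.9% of them were in the first 20% of their chromosome's length and 11.8% in the last 20%, whereas 30.05% were in the 20% around its middle; of all used bins, 19.6%, 20.1% and 20.0% lay there. Single chromosomes differed. The first 20% of the length held 0 of the 502 members on chromosome 2 but 80 of 251 on chromosome 8. The last 20% held 0 of 338 members on chromosome 5 but 52 of 169 on chromosome 18. On chromosome 12 the first and last 20% held 28 and 27 of 94 members. Within 3 Mb of a chromosome end there were 126 members, or 2.54% of them, against 4.42% of all used bins. Of top-fifth bins, 2.72% lay within 3 Mb of an end, 12.7% in the first 20% of the length and 20.99% in the last 20%. Next to an unused bin, one with under 0.25 of the median contacts or left unbalanced by the authors, were 5.08% of the members and 5.21% of all used bins.

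The chosen bins formed 1048 runs of neighbouring bins, with a median length of 3 bins. Of these runs, 313 were single bins and 147 held 10 bins or more, and the long runs took up 47.3% of the members. The top 20% of bins formed 890 runs, 164 of them of 10 bins or more. In rn6 coordinates, the longest run of members spanned chr3:86800001-91000000 (4.2 Mb), followed by chr15:71500001-75500000 (4 Mb) and chr6:87000001-90600000 (3.6 Mb). Chromosome 12 had the shortest longest run, of 11 bins. Genes inside the runs were not named, because the gene annotation at hand belonged to another genome build.

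Each library was also given its own eigenvector and its own bottom 20%. The library calls held 1111 and 1098 runs in Lenti-GFP and 1148 and 1129 runs in Lenti-AS, a difference of 34 runs with SDs of 9.19 and 13.4 (n = 2 per group), given without a test because these calls rest on the cis contacts that the rule used. The Lenti-AS libraries were shallower, and after thinning every library to the depth of the shallowest the counts were 1179 and 1153 against 1165 and 1129, so the direction turned. Of the 4959 members, 91.4% and 93.1% were again in the bottom 20% of the single Lenti-GFP libraries, which had gone into the map that chose them. In the Lenti-AS libraries 87.5% and 87.0% were. Thinned to equal depth, the Lenti-GFP libraries gave 88.4% and 89.3%, and Lenti-AS 87.1% and 87.0%. On the merged Lenti-AS map 94.1% of the members stayed in the bottom 20%, from 88.5% on chromosome 13 to 97.2% on chromosome 10. In none of these calls did any member have an eigenvector above 0.

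The eigenvector was taken over cis contacts, but trans contacts of Lenti-GFP also entered the rule through the balancing of the map. Trans contacts of all 4 libraries, Lenti-AS included, entered it through the raw contacts per bin that set the sign and the used bins. The trans values are thus not fully independent of the rule. Expected trans contacts were taken for each pair of chromosomes from the trans contacts that each class of bins made there. Contacts between members of different chromosomes were 1.83 and 1.78 times the expected level in the Lenti-GFP libraries and 1.64 and 1.65 times in the Lenti-AS libraries, from between 429379 and 656715 contacts per library. Members thus met other members above expectation in all 4 libraries. The level among members over their level with all other bins was 2.18, 2.12, 1.91 and 1.91 in the same order, a mean of 1.02 on the log2 scale (SD 0.0989, n = 4), above 0 in 4 of 4 libraries (exact sign-flip test, two-sided p = 0.125, the smallest p that 4 libraries allow). With the sign set by trans contacts this mean was 0.62.

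Trans contacts among members were lower in both Lenti-AS libraries than in either Lenti-GFP library. The difference was -0.13 on the log2 scale, from means of 0.85 (SD 0.0269) and 0.72 (SD 0.00181), with n = 2 per group (exact permutation test, two-sided p = 0.333, the smallest p that 2 libraries against 2 allow). With expected values from balanced trans contacts, the difference was -0.083, and with the sign set by trans contacts it was -0.086. Contacts of members with top-fifth bins of other chromosomes went the other way: they were 0.343 and 0.344 times the expected level in Lenti-GFP and 0.409 and 0.404 times in Lenti-AS, again without overlap, a log2 difference of 0.24 (exact permutation test, two-sided p = 0.333, n = 2 per group). This difference shrank to 0.064 with the sign set by trans contacts. Under that sign the bottom-fifth and top-fifth bins of chromosomes 10, 17 and 20 change places, so the classes compared are not the same. Since the expected values come from the classes' own totals, the levels of members with members, middle bins and top-fifth bins are tied to each other, and the rise with top-fifth bins is no separate evidence beside the fall among members. Members met middle bins close to expectation, at 1.02 times the expected level in each of the 4 libraries. Among top-fifth bins themselves, the libraries overlapped, at 1.87 and 1.92 in Lenti-GFP and 1.9 and 1.91 in Lenti-AS. With expected values from balanced trans contacts they did not, at 1.956 and 1.961 against 1.889 and 1.894, so under that setting contacts among bins of the same class were lower in Lenti-AS in both classes.

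All 20 chromosomes showed the same order of the libraries. Trans contacts of the members with members elsewhere were lower in both Lenti-AS libraries than in both Lenti-GFP libraries on 20 of 20 chromosomes, and those with top-fifth bins were higher on 20 of 20. Chromosomes share each other's contacts and are no replicates of the infection. The level among members was highest for chromosome 10, at 2.26 and 2.20 in Lenti-GFP and 2.01 and 2.01 in Lenti-AS, and lowest for chromosome 2, at 1.66 and 1.61 against 1.48 and 1.49. Smaller chromosomes tended to have the higher levels. Over the 20 chromosomes, the level (mean of 4 libraries) and the number of used bins had a Pearson's r of -0.62 and a Spearman's rho of -0.64, given as a description because the chromosomes come from the same libraries.

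**Figure D1:**
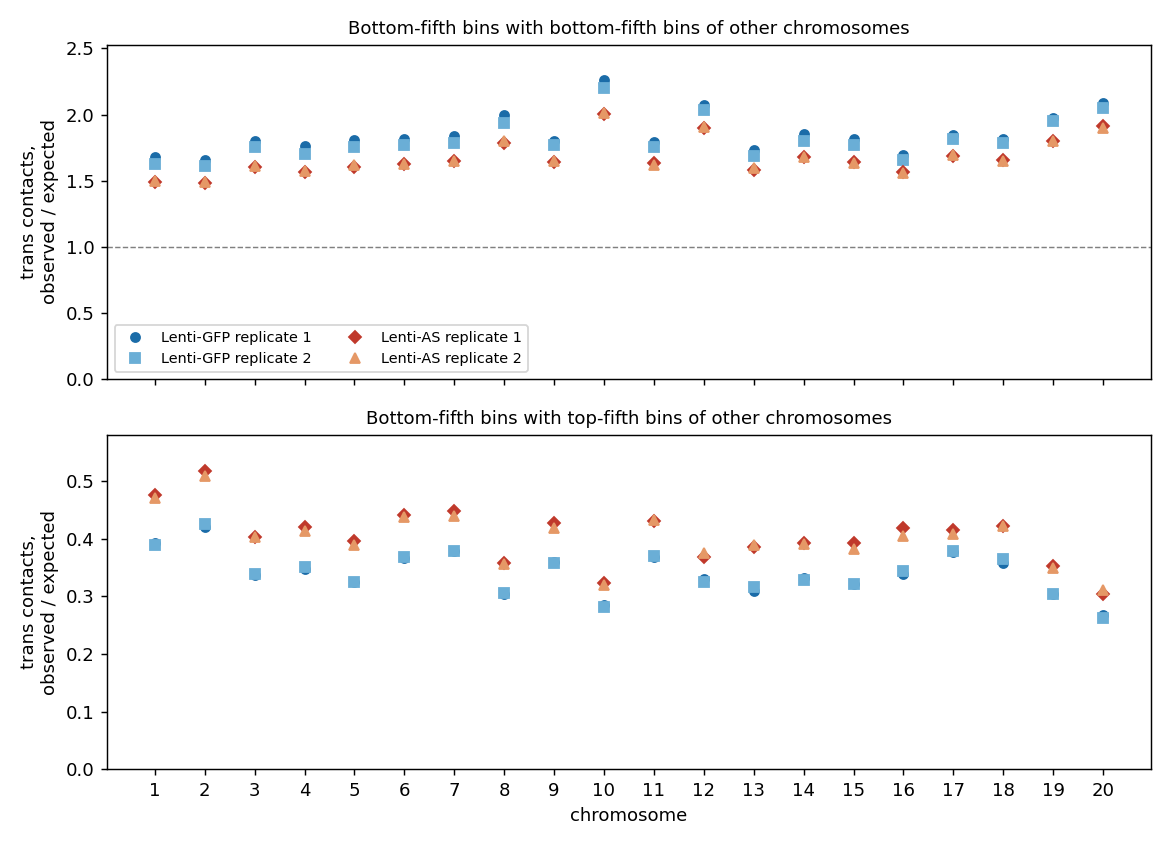
Trans contacts of the bottom-fifth bins of each chromosome with bottom-fifth bins (upper panel) and top-fifth bins (lower panel) of the other chromosomes, as observed over expected contacts, with 1 point per library. In the upper panel all values lie above 1, between 1.48 and 2.26, with both Lenti-AS libraries below both Lenti-GFP libraries on each of the 20 chromosomes; in the lower panel the values lie between 0.263 and 0.518 and the order is the opposite.

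Taken pair by pair, members met above expectation in 190 of 190 pairs of chromosomes in every library. The highest level was between chromosomes 8 and 10, at 2.70 and 2.59 in Lenti-GFP and 2.41 and 2.42 in Lenti-AS, from 2531 to 4167 contacts per library. The lowest was between chromosomes 3 and 4, at 1.22 and 1.20 against 1.14 and 1.15, from 4023 to 5851 contacts. Both Lenti-AS libraries were below both Lenti-GFP libraries in 188 of the 190 pairs and above them in 0, and the libraries overlapped in 2 pairs, chromosomes 11 with 12 and 19 with 20. The pairs share chromosomes and come from the same libraries, so they are no replicates and this count is a description.

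**Figure D2:**
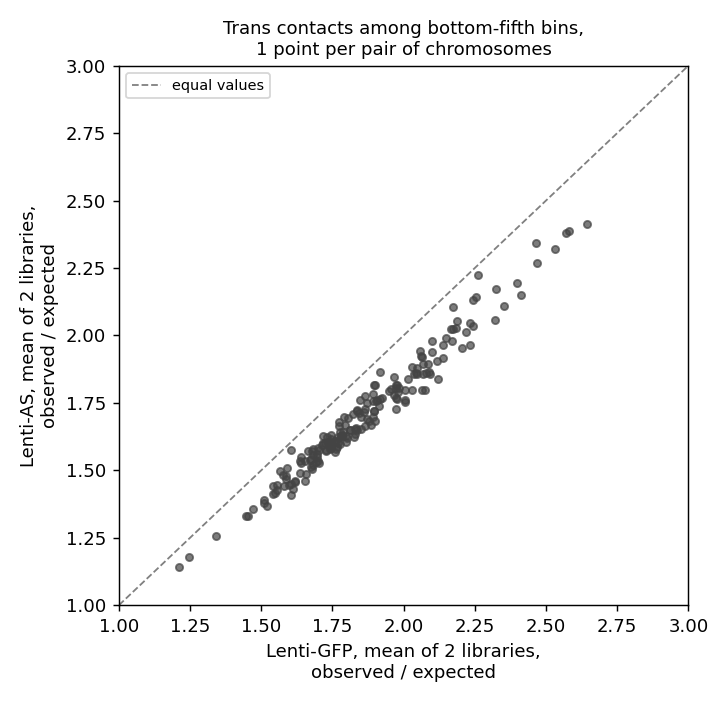
Trans contacts among bottom-fifth bins for each of the 190 pairs of chromosomes, as observed over expected contacts, with the mean of the 2 Lenti-GFP libraries on the horizontal axis and the mean of the 2 Lenti-AS libraries on the vertical axis. The points lie below the dashed line of equal values along their whole range, and all libraries taken singly span 1.14 to 2.70.

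The share of contacts that members made in trans was higher in Lenti-AS. It was 12.6% and 12.9% in Lenti-GFP and 13.9% and 13.7% in Lenti-AS, a difference of 1.08 percentage points with SDs of 0.160 and 0.136 (n = 2 per group), given without a test because its denominator holds the cis contacts that the rule used. The share was also higher in Lenti-AS without overlap in middle bins, at 12.8% and 12.9% against 13.2% and 13.1%, and over all used bins, at 12.5% and 12.6% against 12.8% and 12.8%. In top-fifth bins it was 11.6% and 11.6% against 11.3% and 11.3%. Of their contact ends, members spent 23.4% and 23.3% in Lenti-GFP and 23.2% and 23.3% in Lenti-AS on cis partners more than 2 Mb away, over 2 times the share of top-fifth bins (10.3% and 10.3% against 9.59% and 9.67%). The rule used these cis contacts. All members together held 16.6% and 17.1% of the contact ends on the numbered chromosomes in Lenti-GFP and 16.7% and 17.0% in Lenti-AS, and here the groups overlapped. Raw contacts set the sign of the eigenvector, so this share is a description. Chromosome X, which was not among the chromosomes the members came from, took 5.22% and 5.37% of the members' trans contacts in Lenti-GFP and 5.28% and 5.31% in Lenti-AS, with overlap, and 2.54% to 2.77% of those of top-fifth bins.

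Contacts with the mitochondrial genome separated the same groups of libraries. Members had 96 and 111 such contacts in Lenti-GFP and 591 and 581 in Lenti-AS, which is 3.15 and 3.04 per 1000000 contact ends against 24.6 and 25.3. In top-fifth bins the rates were 1.60 and 1.63 against 25.3 and 22.7 per 1000000. The part of whatever raised these contacts in the trans contacts of members was not tested. Over all sequences the libraries held 70488877 to 110770015 contacts, of which 12.6% to 13.0% were in trans, and both Lenti-AS libraries were the shallower. With all libraries thinned to the shallowest, the difference in trans contacts among members was -0.13 on the log2 scale and that with top-fifth bins 0.24. Thinning lowers observed and expected contacts alike, so these values could hardly move, and nothing is read from them about depth.

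Single bins showed the same order of classes. The share of a bin's trans contacts that was made with members had a median over the 4959 members of 30.2% and 30.4% in Lenti-GFP and 29.2% and 29.4% in Lenti-AS. For the 14907 middle bins tested the medians were 15.9% and 16.5% against 17.3% and 17.4%, and for the 4959 top-fifth bins 5.41% and 5.51% against 6.98% and 6.93%. In Lenti-GFP replicate 1, single members ranged from 13.7% to 57.6%, and the highest top-fifth bin had 20.1%. Members in longer runs had slightly more of their trans contacts with members: the medians were 28.6% and 29.1% in Lenti-GFP for single-bin runs and 30.5% and 30.8% for runs of 10 bins or more, and 28.3% and 28.6% against 29.4% and 29.6% in Lenti-AS. Across the members of all chromosomes pooled, Pearson's r between the eigenvector and this share was -0.042, -0.059, -0.025 and -0.019 in the 4 libraries. This is a description over bins that share libraries and depth. The eigenvector was scaled on each chromosome, so the pooled r does not give the relation within a chromosome. Sets cut deeper had higher levels among themselves in every library. In Lenti-GFP replicate 1 the bottom 30%, 20% and 10% were at 1.68, 1.83 and 1.92 times the expected level.

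**Figure D3:**
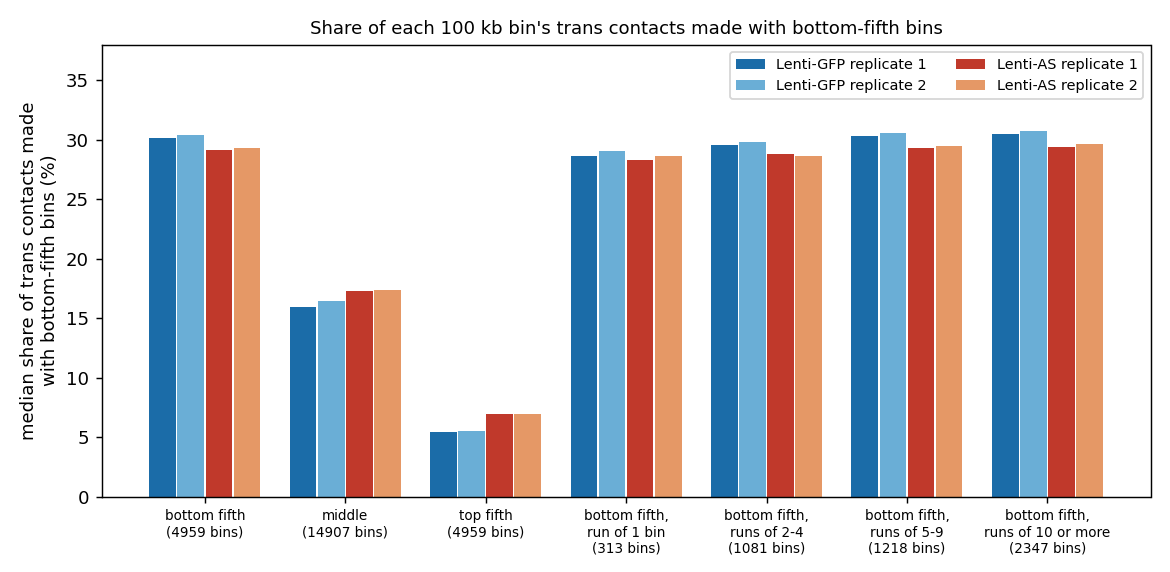
Median share, in percent, of the trans contacts of 100 kb bins that were made with bottom-fifth bins, by class of bin and, for the bottom 20%, by the length of the run a bin lay in, with 1 bar per library. The bars of the bottom 20% are lower in Lenti-AS (29.2% and 29.4%) than in Lenti-GFP (30.2% and 30.4%), while those of the middle and top classes are higher in Lenti-AS. The shares are not set against expected contacts.

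These shares were tested bin by bin with edgeR's quasi-likelihood test over 24825 bins, on counts of contacts with members and with each bin's trans contacts as the offset. A bin was called at an adjusted p below 0.05. Of the 4959 members, 2 were lower in Lenti-AS (0.0403%), where 0.0242% of all tested bins were, and 0 were higher, where 0.959% of all were; at an unadjusted p below 0.05, 187 members (3.77%) were lower, where 1.23% of all were, and 26 (0.524%) were higher, where 15.9% of all were. The calls in the other direction were in other classes, with 141 of the top-fifth bins (2.84%) and 97 of the middle bins (0.651%) higher in Lenti-AS. The median log2 difference was -0.044 over the members, 0.086 over middle bins and 0.33 over top-fifth bins, against 0.083 over all tested bins. The offset holds each bin's own trans contacts only, so a shift common to all bins stays in these counts. A bin called higher therefore need not have risen over expected contacts. Against expected contacts, members met middle bins at 1.02 in each library. Lower in Lenti-AS were 3441 members (69.4%), 32.0% of all tested bins and 4.60% of the top-fifth bins. DESeq2 called 0 bins of any class. With library totals scaled by TMM in place of the offset, 40 members were called, 39 of them lower, among 122 called bins of all classes, 98 of them lower.

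Both called members can be shown in full. The bin chr9:117100001-117200000 made 33.4% and 34.9% of its trans contacts with members in Lenti-GFP, from 178 and 233 contacts, and 24.0% and 26.4% in Lenti-AS, from 120 and 110 contacts (log2 difference -0.45, edgeR adjusted p = 0.0334). The bin chr15:78100001-78200000 made 33.8% and 31.3% in Lenti-GFP and 25.4% and 24.5% in Lenti-AS (log2 difference -0.38, edgeR adjusted p = 0.0424). In neither bin did the groups overlap. Among members with a higher share in Lenti-AS, the lowest p was at chr4:48000001-48100000, with 24.4% and 26.1% against 32.0% and 31.4% (log2 difference 0.32, edgeR adjusted p = 0.0844), which missed the threshold. Leaving out Lenti-GFP replicate 2 left 1 called member, and leaving out any of the other libraries left 0.

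The longest runs differed in the same direction as the members as a whole. The run on chromosome 3 met members of other chromosomes at 1.78 and 1.75 times the expected level in Lenti-GFP and 1.58 and 1.56 times in Lenti-AS, from 5162 to 7684 contacts per library. For the run on chromosome 15 the levels were 1.79 and 1.75 against 1.64 and 1.62, and for that on chromosome 6 they were 1.75 and 1.74 against 1.56 and 1.57. The groups did not overlap in any of the 3 runs.

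Within chromosomes, contacts were set against the mean of balanced contacts at the same distance. The Lenti-GFP cis contacts chose the members, so their level there is a description, and the group difference in cis is given without a test. Contacts among members rose with distance. They were 0.947 and 0.944 times the expected level at 0.2 to 0.5 Mb in Lenti-GFP, 1.77 and 1.76 times at 1 to 2 Mb, 2.76 and 2.76 times at 5 to 10 Mb and 2.93 and 2.93 times at 20 to 50 Mb. Beyond 50 Mb they were 2.59 and 2.59 times the expected level. Nearest to the diagonal, members therefore met each other slightly below the mean of all bin pairs, while top-fifth bins met each other above it (1.17 and 1.17 at 0.2 to 0.5 Mb).

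In Lenti-AS these cis values were close by. From 2 to 20 Mb, members met at 2.59 and 2.58 times the expected level in Lenti-GFP and at 2.60 and 2.59 times in Lenti-AS, a log2 difference of 0.0077. Beyond 20 Mb the values were 2.83 and 2.83 against 2.85 and 2.86, a log2 difference of 0.012. On Lenti-AS members, chosen by the same rule on the other map, the differences were 0.010 and 0.019, in the same direction. The chromosome with the highest level beyond 2 Mb was chromosome 12 (3.68 and 3.69 against 3.75 and 3.70), and the lowest was chromosome 19 (2.28 and 2.30 against 2.30 and 2.33). Both Lenti-AS libraries were above both Lenti-GFP libraries on 16 of 20 chromosomes and below them on 1. The members were chosen on the Lenti-GFP cis contacts, and nothing is read from this count.

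Members and top-fifth bins of the same chromosome met rarely at every distance. Their contacts were 0.117 and 0.117 times the expected level at 1 to 2 Mb in Lenti-GFP and 0.127 and 0.125 times in Lenti-AS, 0.163 and 0.164 against 0.177 and 0.176 at 20 to 50 Mb, and 0.151 and 0.151 against 0.171 and 0.169 beyond 50 Mb. The Lenti-AS libraries were above the Lenti-GFP libraries in each band from 0.5 Mb on and overlapped with them at 0.2 to 0.5 Mb, where 108 pairs of bins were in the band. Lenti-GFP cis contacts chose both classes, as opposite ends of the eigenvector, so nothing is read from this order.

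**Figure D4:**
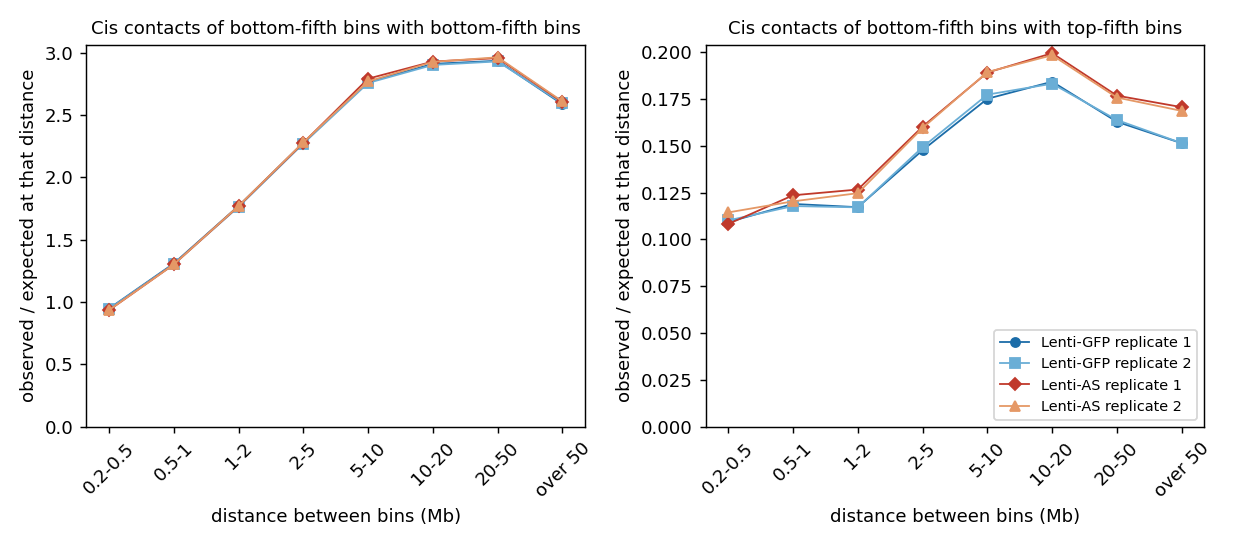
Cis contacts of the bottom-fifth bins by distance between bins in Mb, as contacts observed over those expected at that distance, with bottom-fifth bins (left) and with top-fifth bins (right), 1 line per library. On the left the 4 lines run together from 0.934 to 2.96, whereas on the right the Lenti-AS lines lie above the Lenti-GFP lines from 0.5 Mb on. Both classes were chosen on Lenti-GFP cis contacts, so the order of the groups is a description.

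Pairs of bins up to 1.9 Mb apart were tested with edgeR's quasi-likelihood test, with the contacts of each library at each distance as the offset. Of 40989 tested pairs with both bins in the bottom 20%, 201 (0.490%) were lower in Lenti-AS, where 0.238% of all 306831 tested pairs were, and 5 (0.0122%) were higher, where 0.0968% of all were. Nothing is read from these counts about the members, since their cis contacts in Lenti-GFP chose them. Direct neighbours made up 134 of the 206 called pairs, or 65.0%, but 9.54% of the tested pairs of members. Over all pairs the shares were 58.3% of those called and 8.29% of those tested. Chromosome 1 held 48 of the called pairs, chromosome 12 held 39 and chromosome 10 held 30, which was 1.25%, 6.75% and 1.79% of their tested pairs of members. Over all tested pairs of the same chromosomes 0.465%, 1.72% and 0.518% were called. The calls depended on the setting: with the cis contacts of both bins in the offset 2 pairs of members were called among 4 of all pairs, DESeq2 called 5 among 13, and with neighbouring bins left out there were 41 among 203. Leaving out 1 library gave 64 of 199 called pairs without Lenti-GFP replicate 1, 125 of 721 without Lenti-GFP replicate 2, 84 of 398 without Lenti-AS replicate 1 and 37 of 135 without Lenti-AS replicate 2.

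The called pairs with the largest differences are given as a description, with no p. The largest decrease joined chr12:48900001-49000000 with chr12:50000001-50100000, which had 31.6 and 22.4 contacts in Lenti-GFP and 10.5 and 8.58 in Lenti-AS after scaling to equal contacts at that distance (log2 difference -1.46). Next came chr12:34300001-34400000 with chr12:34600001-34700000, at 49.4 and 41.8 against 23.3 and 17.3 (log2 difference -1.15). The largest increase joined chr5:65700001-65800000 with chr5:67000001-67100000, at 8.12 and 6.15 against 19.9 and 22.2 (log2 difference 1.56). It was followed by chr15:77900001-78000000 with chr15:78400001-78500000, at 45.9 and 64.9 against 86.5 and 91.1 (log2 difference 0.66). The second of these increases flanked the bin on chromosome 15 whose trans contacts with members were lower in Lenti-AS. The groups did not overlap in any of the 4 pairs.

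Insulation was measured in bins of 10 kb as the log2 level of balanced contacts across a bin, between the 200 kb on either side, relative to the mean of the chromosome, so that low values mark boundaries between contact domains. Inside members the mean score was -0.25 and -0.25 in Lenti-GFP and -0.27 and -0.27 in Lenti-AS, a difference of -0.013. Insulation is built from cis contacts, and those of Lenti-GFP chose the members, so the group differences in it are a description. Top-fifth bins had means of 0.12 in all 4 libraries. The scores of members varied little along the genome, with an SD over bins of 0.40 in every library, against 0.55 to 0.57 in the top 20% and 0.70 to 0.71 in the middle. Boundaries, taken as local minima of the score that stood out by 0.2 or more, were fewer in members than in the other classes, at 2.15 and 2.06 per Mb in Lenti-GFP and 2.31 and 2.29 per Mb in Lenti-AS. In top-fifth bins there were 4.14 and 4.13 against 4.24 and 4.26 per Mb, and in middle bins 3.43 and 3.41 against 3.48 and 3.50 per Mb. Lenti-AS thus had more boundaries without overlap in all 3 classes, by 0.198 per Mb in members (SDs 0.0660 and 0.0145), 0.114 in top-fifth bins and 0.0693 in middle bins. The Lenti-AS libraries were shallower, and the part of depth in the number of boundaries was not tested.

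Run ends carried a dip in insulation, which is given as a description. The rule placed these ends by Lenti-GFP cis contacts, and insulation is built from cis contacts. No such profile was made around other borders. Around the 547 ends where a stretch of at least 3 members met at least 3 bins that were no members, the mean score was lowest at 35 kb outside the end, with -0.78 and -0.77 in Lenti-GFP and -0.76 and -0.76 in Lenti-AS. From 200 to 500 kb inside the run it was -0.17 and -0.18 in Lenti-GFP and -0.19 and -0.19 in Lenti-AS, and over the same distances outside it was -0.13 and -0.13 against -0.12 and -0.12. Of the 2096 ends of the 1048 runs, 1825 bordered a used bin of another class. Of these, 35.0% and 34.7% in Lenti-GFP and 35.3% and 36.2% in Lenti-AS had a boundary within 50 kb. Over all borders between used bins this was 32.1% to 33.3%.

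**Figure D5:**
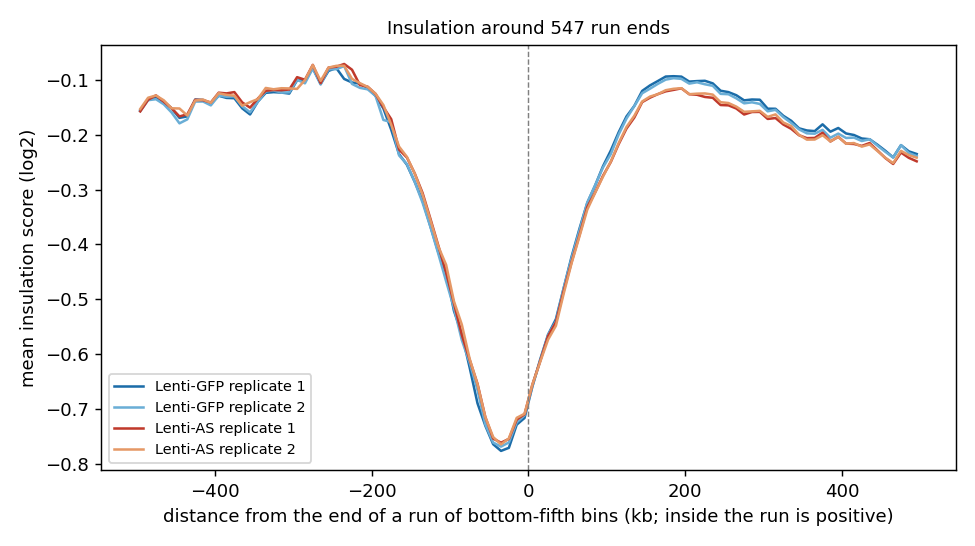
Mean insulation score (log2) of 10 kb bins against the distance in kb from 547 ends of runs of bottom-fifth bins, with the inside of the run to the right of 0 and 1 line per library. All 4 lines dip to between -0.78 and -0.76 just outside the run, and from 15 kb inside the run on the Lenti-AS lines lie slightly below the Lenti-GFP lines.

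Insulation was also fitted bin by bin. With limma over 231194 bins, 0 of 43934 bins inside members had an adjusted p below 0.05, where 0.00303% of all did. At an unadjusted p below 0.05, 2537 (5.77%) were lower in Lenti-AS, where 3.37% of all bins were, and 1032 (2.35%) were higher, where 2.42% of all were, and nothing is read from these counts either. As a description, the bin that ranked first among those higher was chr12:10630001-10640000, with scores of -1.66 and -1.63 in Lenti-GFP and -1.23 and -1.26 in Lenti-AS. Among those that were lower it was chr7:87190001-87200000, with -0.59 and -0.62 against -0.98 and -0.91.

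The eigenvectors of the single libraries were fitted in the same way. With limma, 0 of the 4959 members and 0% of all 26315 bins had an adjusted p below 0.05. At an unadjusted p below 0.05, 245 members (4.94%) were lower in Lenti-AS, where 10.3% of all bins were, and 88 (1.77%) were higher, where 1.63% of all were. The rule used the Lenti-GFP eigenvector, and nothing is read from these counts. Median eigenvectors of the members were -1.51 and -1.51 in Lenti-GFP and -1.55 and -1.54 in Lenti-AS. The other classes were lower in Lenti-AS too. Middle bins had medians of -0.22 and -0.23 against -0.27 and -0.27, and top-fifth bins 1.06 and 1.06 against 0.98 and 0.98. Thinned to equal depth, members had -1.52 and -1.53 against -1.54 and -1.54. The median difference was -0.030 over members and -0.046 over all bins. With quantile normalization between libraries it was 0.012 over members. As a description, the bin that ranked first among members higher in Lenti-AS was chr1:155700001-155800000, with -1.54 and -1.50 against -1.22 and -1.17, and among those lower chr4:108700001-108800000, with -1.21 and -1.21 against -1.66 and -1.80.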

How the data were processed

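Hi-C libraries were made by the authors with the Arima kit from 2 Lenti-GFP and 2 Lenti-AS samples, and the submitters' notes name HiC-Pro and rn6. The deposited files used were the raw counts of contacts between 10 kb bins per library and, as a signal, the contacts at 100 kb that the authors balanced (ICE) after merging each condition. Nothing states that the 2 libraries of a group came from separate animals, so p-values measure the spread between these samples. The members and lists were chosen with earlier results of these data known.

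Raw counts were summed to 100 kb and balanced per library. Bins were used if they had at least 0.25 of the median contacts, summed over all libraries, and were balanced by the authors in both merged maps. Counts were tested with edgeR 4.0.16 (DESeq2 1.42.0 as alternative) and scores with limma 3.58.1, with Benjamini-Hochberg adjustment. Pairs were tested if they averaged 10 counts or more. The edgeR and limma tests were also run on simulated data with known changes. Single values were compared by exact permutation. For values built from contacts that chose the members, among them the number of runs and the trans and contact shares, such a test had been planned but no p is given. Named bins were, per test and direction, the 2 largest log2 differences past an adjusted p of 0.05, or otherwise the lowest p. Between the 2 Lenti-AS libraries, trans contacts of members differed by no more than sampling noise (chi-square per degree of freedom 0.960), but pairs of members differed (1.04), so both were kept. In trans contacts of members, the 2 Lenti-GFP libraries differed beyond sampling noise (1.09). Lenti-GFP replicate 2 and Lenti-AS replicate 1 differed about as much (1.10), and the other pairs across the groups by 1.16 to 1.33. Genes could not be placed, since the annotation was of another build, and were not analysed here.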

Additional observations from a re-analysis of the deposited data

Results flagged for a closer look

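Contacts of the bottom-fifth bins with the mitochondrial genome, which lie outside the contacts between nuclear chromosomes that were compared, were above the level of the control libraries. They were 24.6 per 1000000 contact ends in Lenti-AS replicate 1 and 25.3 in Lenti-AS replicate 2, against 3.15 and 3.04 in the Lenti-GFP libraries. The ratio of the group means was 8.04 for bottom-fifth bins, 13.6 for middle bins and 14.9 for top-fifth bins. As a difference of the group means, the rise was nearly equal in the same classes, at 21.8, 21.5 and 22.4 per 1000000 contact ends. The part of this rise in the other differences between the groups was not tested.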

How the results depend on the processing

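Over 130 recomputed values, 100 kept their direction or stayed within 1.5 times the reported count. Trans contacts among members were lower in Lenti-AS under all 12 alternatives (-0.15 to -0.083, log2), those with top-fifth bins higher under all 12 (0.064 to 0.27), and the trans share of members higher under all 9 (0.892 to 1.19 percentage points). Not all of these alternatives could have turned the direction. The groups did not overlap, so leaving out 1 library could not do so, and thinning could hardly move the trans contacts over expected. The contact share of members had no stable direction: the difference of -0.031 points became 0.0013 with members called on the Lenti-AS map and 0.036 with the sign set by trans contacts, and ranged from -0.268 to 0.205 when 1 library was left out. The difference of 34 runs turned to -19 after thinning, and ranged from 24.5 to 43.5 without 1 library. Without 1 library each, the differences ranged from -0.15 to -0.11 for trans contacts among members, 0.24 to 0.25 for those with top-fifth bins, 0.0058 to 0.0096 and 0.010 to 0.013 for the cis contacts up to and beyond 20 Mb, 0.963 to 1.19 points for the trans share, and the mean trans preference from 0.98 to 1.05.

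Of members called for trans contacts with members (2), 0 were left with members called on the Lenti-AS map, on the sum of the 4 libraries or as the bottom 10%, 0 with DESeq2, 40 with TMM and no offset, and 0 to 1 without 1 library. Over all bins 244 were called, and in the same order 318, 298, 34, 0, 122 and 27 to 87. Of called pairs of members (206 among 1028 of all pairs), there were 82 with the bottom 10% and 364 with the bottom 30% of bins, sets of another size, 5 among 13 with DESeq2, 2 among 4 with cis contacts in the offset, 41 among 203 with neighbouring bins left out (chosen after seeing the data), and 37 to 125 among 135 to 721 without 1 library. For the eigenvector 0 to 3 members among 0 to 78 of all bins, and for insulation 0 to 2 bins in members among 32 to 63 of all, were called without 1 library, and 1 insulation bin among 7 with the bottom 30%. The causes were not tested.

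The replicate numbers are shared between the groups, and the main tests did not treat them as pairs. For trans contacts of bins with members, deviations of the replicates numbered 1 correlated at r = 0.0089. Over the members, replicates differed by little more than sampling noise here (chi-square per degree of freedom 1.09 in Lenti-GFP and 0.960 in Lenti-AS). This r therefore cannot show whether samples were paired, and it was not taken for cis pairs, eigenvectors or insulation. With the replicate block, 3 members among 344 of all bins, 254 pairs of members among 1486 of all pairs, 2 member eigenvectors among 77 and 1 insulation bin inside members among 47 were called.

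Depth limits single bins. The median member had 164 to 250 trans contacts with other members per library, and 2 libraries per group cannot give an exact permutation p below 0.333.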
